A study of Mus musculus with 35 samples.

Results

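Fatty acids are burned for energy in a fixed order of steps, and the 38 genes described here were chosen by name to cover that order from activation to regulation. A free fatty acid is first joined to coenzyme A by an acyl-CoA synthetase. The carnitine shuttle then carries the acyl group into the mitochondrion, where beta-oxidation shortens it by repeated dehydrogenation, hydration, dehydrogenation and thiolysis, and peroxisomes run a parallel pathway for very long and branched chains. PPAR nuclear receptors with their PGC-1 coactivators raise transcription of many of these genes in liver, muscle and fat. Regulatory T cells (Tregs) are CD4+ T cells that restrain immune responses, and those resident in fat are known for dependence on PPAR-gamma. All 38 symbols had a row in the table of 55011 gene symbols, and 36 of them had enough counts to be tested, among 15910 such genes. Ppara and Pdk4 did not.

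Each library held 1000 Tregs, double-sorted as CD4+ CD25+ cells from the spleen or from visceral adipose tissue (VAT). All mice were wild-type C57BL/6 males, retired breeders over 35 weeks old, untreated as far as the labels say, and held in 12 h light and 12 h dark. Cells were collected every 4 h, at 0, 4, 8, 12, 16 and 20 h after lights on (Zeitgeber time, ZT), with 3 libraries per tissue and time except VAT at ZT20, which had 2. This gave 17 VAT and 18 spleen libraries of 2069319 to 6260185 counts. Whether replicates were separate animals is not in the labels. The p-values therefore reflect only the spread among these libraries, which may be technical.

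Treg and T cell identity genes (8, Foxp3 and Il2ra among them) summed to 6134 to 7980 CPM (reads scaled to a common library total) in VAT and 3399 to 4714 CPM in spleen. All 8 were detected in both tissues. Ctla4 had the largest difference of means (2241 CPM in VAT, 401 CPM in spleen). Cd3g was about equal (508 and 506 CPM), and Cd3e alone had the lower mean in VAT (171 and 327 CPM). The gate does not use Foxp3. Of 10 adipocyte markers, Pnpla2 and Lipe, lipase genes that other cells express too, made up nearly all of the sum, which was 79.1 to 130.2 CPM in VAT and 74.0 to 110.2 CPM in spleen. The adipocyte-defining genes Adipoq, Lep and Plin1 averaged 0.0960, 0.0937 and 0.0931 CPM in VAT and 0.486, 0.0872 and 0.143 CPM in spleen. Retn was at 0 in all VAT libraries and averaged 0.132 CPM in spleen, and Ucp1 averaged 0.0294 and 0.251 CPM. Cidec, Adig and Car3, like Lep, had the higher mean in VAT (0.145, 0.406 and 0.616 CPM, against 0.112, 0.0386 and 0.164 CPM in spleen). Car3 reached 3.12 CPM in its highest VAT library. B cell markers (6 genes) summed to 93.6 to 305 CPM in VAT and 1197 to 3084 CPM in spleen, and macrophage or monocyte markers (10 genes) to 6.94 to 24.2 and 28.2 to 111 CPM. The part of those cells in the tissue differences was not tested. Handling before the sort cannot be told apart from tissue, and a change in the make-up of the sorted cells cannot be told apart from a change of RNA per cell.

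To compare the tissues, each gene's mean over the 6 VAT groups was set against its mean over the 6 spleen groups. Of the 36 genes tested, 19 were higher and 5 lower in VAT, and 12 were not called, under edgeR quasi-likelihood with Benjamini-Hochberg adjustment over all genes tested at a threshold of 0.05. Among all genes tested, 28.4% were higher and 33.8% lower in VAT, 62.2% in all. The median log2 fold change (VAT minus spleen) was 0.21 for the 36 genes and -0.10 for all genes. Of the 24 genes called, 20 had the same direction at all 6 times, against 77.7% of all genes called. Summed over the 38 genes, levels ran from 3437 through a median of 4005 to 4902 CPM in VAT and from 2455 through 2818 to 3246 CPM in spleen. All 17 VAT libraries therefore lay above the highest spleen library under the main scaling, which is described next.

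The scaling of libraries mattered for small changes and for overlap between tissues. The main scaling factors (TMM) were 0.812 to 0.932 in VAT and 1.07 to 1.17 in spleen. With library totals in their place, the median over all genes moved to -0.45 and that over the 36 genes to -0.13, and 14 genes were higher and 16 lower. The 14 were Cpt1a, Slc25a20, Acadvl, Acadl, Acadm, Acads, Hadh, Acaa2, Etfb, Etfdh, Ucp2, Decr2, Crot and Acsl4, all of which were also higher in the main comparison. Hadha, Eci2, Etfa, Acox3 and Hsd17b4 turned negative. All CPM, sums and overlaps in this text use the TMM factors. With library totals, Acadl, Acadvl, Hadh and Etfdh, described below as not overlapping, did overlap. For example, Acadl had 494 of 3836487 counts in VAT ZT8 replicate C and 523 of 3946711 in spleen ZT4 replicate B. Overlap of the summed levels was not examined with library totals.

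**Figure D1:**
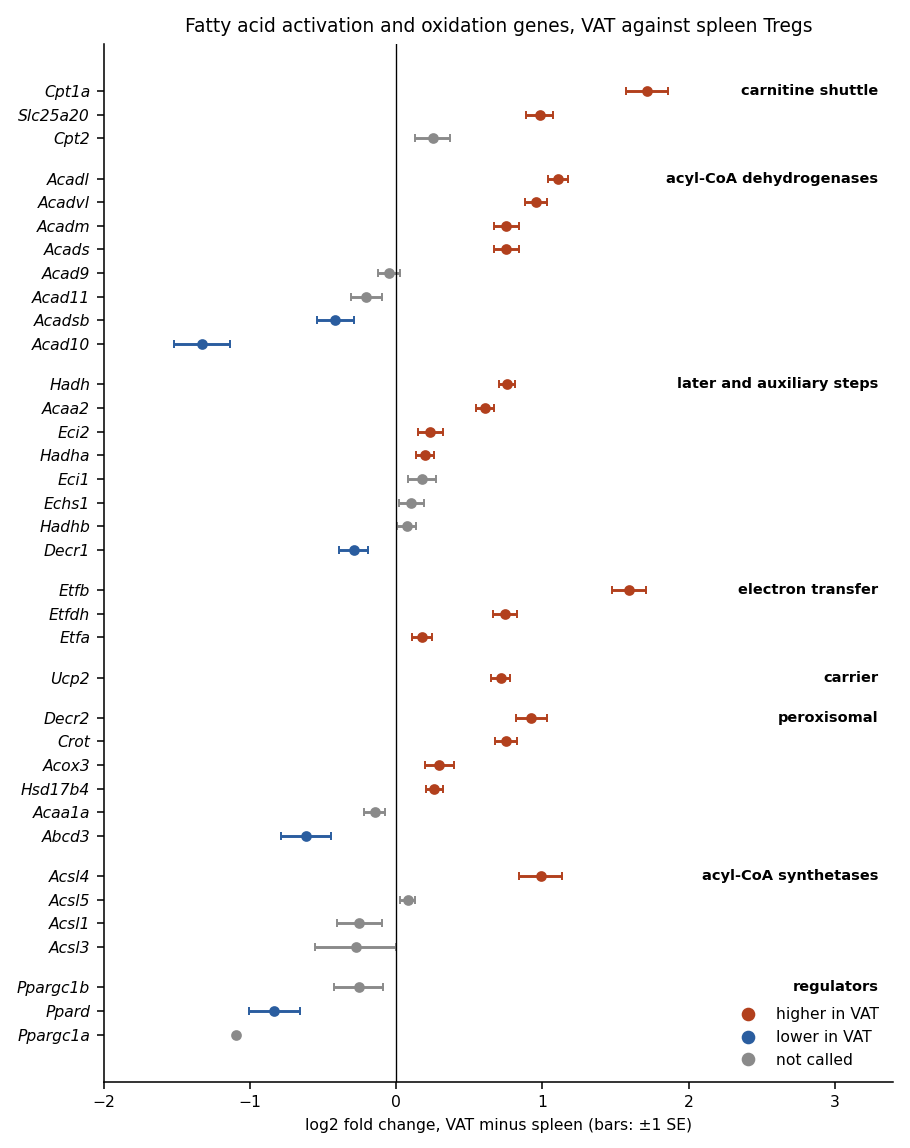
Log2 fold change between VAT and spleen Tregs (x axis, points, with bars of 1 SE) for the 36 genes tested, grouped by step of the pathway. Red points are the 19 genes higher and blue points the 5 genes lower in VAT, and grey points are not called. Ppargc1a has no SE.

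The carnitine shuttle was led by Cpt1a (chromosome 19, 3322334 to 3385733), the outer-membrane carnitine palmitoyltransferase and the rate-limiting entry step. Cpt1a ran from 75.9 through a median of 188 to 293 CPM in VAT and from 21.6 through 51.9 to 99.4 CPM in spleen. Its groups overlapped in part: 15 of 17 VAT libraries lay above the highest spleen library, and VAT was higher at 6 of 6 times. Its log2 fold change of 1.72 ± 0.14 (SE) was the largest among the 36 genes (adjusted p = 5.91e-11). Slc25a20 (chromosome 9, 108662088 to 108684641), which encodes the carnitine-acylcarnitine translocase of the inner membrane, averaged 78.5 ± 13.9 CPM over the 17 VAT libraries and 40.1 ± 8.81 CPM over the 18 spleen libraries (± SD here and wherever CPM means are given). It was higher in VAT by 0.98 ± 0.09 (adjusted p = 6.10e-12), with 16 of 17 VAT libraries above the highest spleen library. Cpt2, which releases the acyl-CoA on the matrix side, averaged 25.4 ± 6.54 and 21.8 ± 5.40 CPM and was not called (0.25 ± 0.12, adjusted p = 0.0741). Cpt2 came under the threshold when any of 6 libraries was left out (VAT ZT0 C, ZT12 B or ZT16 B, spleen ZT4 D, ZT12 B or ZT20 B, lowest adjusted p = 0.0304), so its position against the threshold rests on single libraries. Over the 3 genes, the summed level was 205 to 413 CPM in VAT and 81.1 to 178 CPM in spleen, with no overlap.

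The bases just upstream of the RefSeq start of Cpt1a are shown because Cpt1a had both the largest tissue difference and the clearest daily course. They lie at chr19:3323051-3323284 on the plus strand of GRCm38, end before the GENCODE M21 exon that holds that start, and fall in the first intron of a longer annotated Cpt1a transcript. Capitals mark the nuclear receptor core motif AGGTCA, found here as its reverse complement.
Cpt1a: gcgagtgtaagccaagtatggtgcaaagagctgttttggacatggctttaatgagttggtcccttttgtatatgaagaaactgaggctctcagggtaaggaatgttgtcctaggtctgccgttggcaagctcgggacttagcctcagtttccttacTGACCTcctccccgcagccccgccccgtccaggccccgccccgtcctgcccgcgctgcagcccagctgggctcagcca
The stretch is 234 bases long, 58.1% of them G or C, with 10 CpG dinucleotides. RefSeq windows of 300 bases around the start (250 before, 50 after) matched 33 of the 38 genes. The core motif was in the windows of 4 of the 33 (Cpt1a, Acadvl, Acadm and Echs1), or 12.1%, against 18.1% of all genes with a window, on either strand. A PPAR-type direct repeat (2 copies of AGGTCA in 1 direction with 1 base between), its looser form (2 copies of AGGNCA likewise), the oestrogen-related receptor element (TCAAGGTCA), the E-box (CACGTG), the cyclic AMP element (TGACGTCA) and the D-box (TTATGTAA) were in the windows of none of the 33. These were in 0.0481%, 0.451%, 0.466%, 8.09%, 2.03% and 1.11% of all genes with a window. The core motif is contained in the longer receptor elements, and the search says only whether these letters are in these windows.

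The mitochondrial acyl-CoA dehydrogenases, which make the initial double bond, did not move as a group. Acadvl, Acadl, Acadm and Acads, which between them cover very long to short straight chains, were higher in VAT. Acadl (chromosome 1, 66830839 to 66863277), the long-chain enzyme, ran from 140 through 193 to 287 CPM in VAT and from 67.1 through 94.0 to 119 CPM in spleen. No VAT library overlapped a spleen library, and the log2 fold change was 1.11 ± 0.07 (adjusted p = 1.03e-16). Acadvl (chromosome 11, 70010183 to 70015411), the very long-chain enzyme of the inner membrane, ran from 136 through 172 to 219.8 CPM and from 60.1 through 90.0 to 120.2 CPM, again with no overlap, and was higher by 0.96 ± 0.07 (adjusted p = 3.09e-14). Under the main scaling, complete separation of this kind, with VAT above spleen, was found for 6.40% of all genes tested and for 4 of the 36 (Acadl, Acadvl, Hadh and Etfdh). The opposite separation was found for 4.02% of all genes and for 0 of the 36. Acadm and Acads, the medium- and short-chain enzymes, were higher by 0.75 ± 0.09 and 0.75 ± 0.08. Acadm averaged 88.4 CPM in VAT and 52.9 CPM in spleen, and Acads 56.2 and 32.8 CPM.

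The other dehydrogenases of the family did not follow. Acad10 (chromosome 5, 121621026 to 121660514), a less studied member with an added kinase-like region, ran from 2.33 through 5.25 to 12.9 CPM in VAT and from 10.1 through 15.6 to 26.1 CPM in spleen. It was lower in VAT by a log2 fold change of -1.33 ± 0.19 (adjusted p = 1.84e-07), with 14 of 17 VAT libraries below the lowest spleen library. Acadsb, the short/branched-chain enzyme of isoleucine breakdown, averaged 29.0 and 39.4 CPM and was lower by -0.42 ± 0.13 (adjusted p = 0.00433). Acad9, which also serves complex I assembly, averaged 66.7 and 69.1 CPM and was not called (-0.05 ± 0.08, adjusted p = 0.598). Acad11 averaged 26.1 and 27.7 CPM and was not called either (-0.20 ± 0.10, adjusted p = 0.0878); without VAT ZT16 B or spleen ZT16 A its adjusted p was 0.0470 or 0.0297. Over the 8 genes, 4 were higher, 2 lower and 2 not called. The summed level of the family was 545 to 772 CPM in VAT and 377 to 483 CPM in spleen, so all VAT libraries lay above all spleen libraries although 4 of the 8 genes were not higher.

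Of the 8 genes placed here under the later and auxiliary mitochondrial steps, 4 were higher, 1 lower and 3 not called. This grouping, like that of the dehydrogenases, was by assigned role, and where the enzymes sit in the cell was not measured. Hadh (chromosome 3, 131233419 to 131272101), the short-chain 3-hydroxyacyl-CoA dehydrogenase, ran from 199 through 268 to 330.2 CPM in VAT and from 102 through 160.2 to 189 CPM in spleen, without overlap. Its log2 fold change was 0.76 ± 0.05 (adjusted p = 6.44e-15). Acaa2, the matrix thiolase, averaged 162 ± 28.3 CPM in VAT and 109 ± 21.5 CPM in spleen and was higher by 0.61 ± 0.06 (adjusted p = 1.40e-10). The remaining changes were small: Eci2, an enoyl-CoA isomerase, was higher by 0.23 ± 0.09 (adjusted p = 0.0174), and Decr1, the dienoyl-CoA reductase needed for polyunsaturated chains, was lower by -0.29 ± 0.10 (adjusted p = 0.0110). Echs1, the enoyl-CoA hydratase (0.11 ± 0.09, adjusted p = 0.298), and Eci1 (0.18 ± 0.09, adjusted p = 0.106) were not called. Eci1 came under the threshold without VAT ZT4 C, VAT ZT16 B or spleen ZT16 B (adjusted p = 0.0382, 0.0417 and 0.0456).

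Hadha and Hadhb encode the alpha and beta subunits of the mitochondrial trifunctional protein, which carries out the last 3 steps on long chains. They are shown as a pair because they start 85 bases apart on opposite strands of chromosome 5, so that both start sites share this stretch. Hadha (30118304 to 30155162, minus strand) averaged 194 ± 26.8 CPM in VAT and 170.5 ± 21.7 CPM in spleen. Its fold change of 0.20 ± 0.06 passed the test (adjusted p = 0.00663), with 6 of 17 VAT libraries above the highest spleen library. Hadhb (30155248 to 30184593, plus strand) averaged 63.4 ± 7.07 and 60.8 ± 6.48 CPM and was not called (0.07 ± 0.07, adjusted p = 0.351). The bases between the annotated ends of both genes are at chr5:30155163-30155247 of GRCm38, written on the Hadhb strand, and hold none of the motifs searched, so no base is in capitals.
Hadha-Hadhb: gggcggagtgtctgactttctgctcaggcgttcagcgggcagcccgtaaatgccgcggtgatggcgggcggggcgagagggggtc
The stretch is 69.4% G or C, with 9 CpG dinucleotides.

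Electrons from the acyl-CoA dehydrogenases pass through the electron transfer flavoprotein, made of the Etfa and Etfb subunits, to its inner-membrane oxidoreductase Etfdh. All 3 genes were higher in VAT, but by unequal amounts. Etfb (chromosome 7, 43444083 to 43457800) ran from 33.7 through 72.9 to 121 CPM in VAT and from 15.1 through 24.1 to 37.9 CPM in spleen, with 16 of 17 VAT libraries above the highest spleen library. Its log2 fold change was 1.59 ± 0.12 (adjusted p = 1.44e-14). Etfa averaged 97.0 ± 14.2 and 87.0 ± 14.3 CPM, and its difference of 0.18 ± 0.07 (adjusted p = 0.0267) was lost without VAT ZT20 C (adjusted p = 0.0787) or spleen ZT20 A (adjusted p = 0.0518). Etfdh (chromosome 3, 79603788 to 79629500) ran from 72.5 through 87.1 to 121 CPM and from 30.3 through 55.3 to 70.6 CPM, without overlap, and was higher by 0.74 ± 0.08 (adjusted p = 4.95e-10). Per kilobase of exon, Etfb stood at 64.7 and Etfa at 52.9 CPM per kb in VAT, and at 21.7 and 47.4 CPM per kb in spleen. In CPM, Etfa had the higher mean in both tissues (97.0 against 75.3 in VAT, 87.0 against 25.3 in spleen). The opposite order per kb in VAT thus rests on the annotated exon lengths (1.84 kb for Etfa, 1.16 kb for Etfb). That difference in VAT was within the spread of the libraries.

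Ucp2, an inner-membrane carrier of the uncoupling protein family, had the highest level of the 38 genes in both tissues. It ran from 709 through 994 to 1581 CPM in VAT and from 463 through 618 to 957 CPM in spleen. The groups overlapped, with 11 of 17 VAT libraries above the highest spleen library, and the log2 fold change was 0.72 ± 0.06 (adjusted p = 3.53e-12). Pdk4, the pyruvate dehydrogenase kinase that is induced with fatty acid oxidation in muscle and liver, had 10 counts over all VAT libraries and 8 over all spleen libraries and was not tested.

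**Figure D2:**
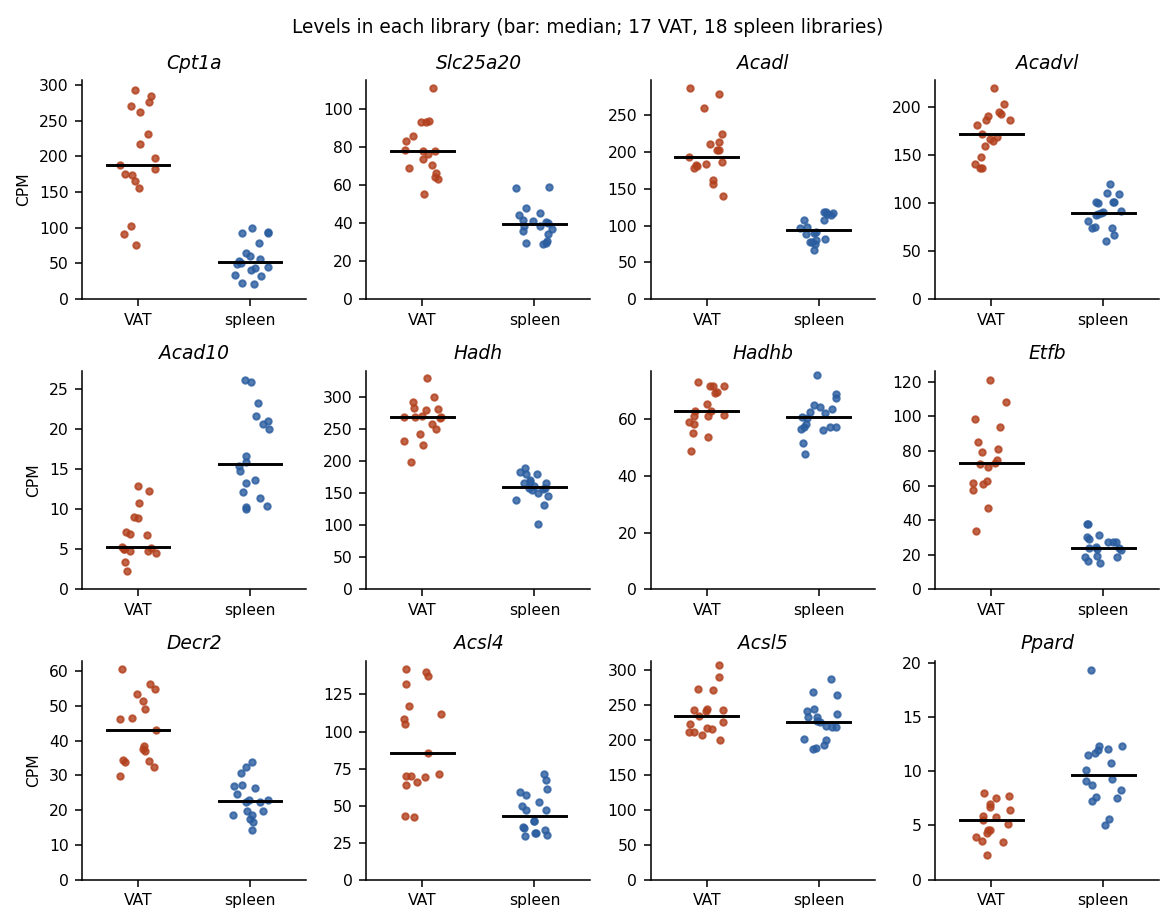
CPM (linear y axis from 0) of 12 genes in each of 17 VAT (red) and 18 spleen (blue) libraries, with the median as a bar. Acadl, Acadvl and Hadh show no overlap between tissues, Hadhb and Acsl5 overlap throughout most of their range, and Acad10 and Ppard lie lower in VAT.

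Of the 6 peroxisomal genes, 4 were higher, 1 lower and 1 not called in VAT. Decr2, the peroxisomal dienoyl-CoA reductase, averaged 43.4 ± 9.64 CPM in VAT and 23.2 ± 5.52 CPM in spleen and was higher by 0.92 ± 0.11 (adjusted p = 1.17e-09), with 14 of 17 VAT libraries above the highest spleen library. Its mitochondrial counterpart Decr1 had the opposite direction, as given above. Crot, which makes carnitine esters of the shortened chains that leave the peroxisome, averaged 177 ± 27.7 and 104 ± 21.2 CPM and was higher by 0.75 ± 0.08 (adjusted p = 5.81e-11). Acox3, a branched-chain acyl-CoA oxidase, and Hsd17b4, the multifunctional enzyme of the middle steps, were higher by 0.30 ± 0.10 and 0.26 ± 0.06 (adjusted p = 0.0103 and 0.000241). Abcd3, a membrane transporter that brings acyl-CoA into the peroxisome, averaged 15.7 ± 7.33 and 22.3 ± 7.84 CPM and was lower by -0.62 ± 0.17 (adjusted p = 0.00239). Acaa1a, the peroxisomal thiolase, averaged 108 ± 22.4 and 121 ± 14.3 CPM and was not called (-0.15 ± 0.07, adjusted p = 0.0734). Acaa1a passed at -0.16 with DESeq2 (adjusted p = 0.0460) and without VAT ZT12 A or spleen ZT16 A (adjusted p = 0.0107 and 0.0466). Reads of Acaa1a and its near-identical copy Acaa1b could be split by the counting.

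The long-chain acyl-CoA synthetases, which activate fatty acids, showed a change in the make-up of the family. Acsl5 was the most abundant member per exon length in both tissues, at 49.1 CPM per kb in VAT and 46.7 CPM per kb in spleen, and its level was not called different (239 ± 30.6 against 227 ± 28.2 CPM; log2 fold change 0.08 ± 0.05, adjusted p = 0.206). Acsl4 (chromosome X, 142317993 to 142390535), which prefers arachidonic and other polyunsaturated fatty acids, ran from 42.0 through 85.3 to 142 CPM in VAT and from 29.1 through 43.2 to 71.2 CPM in spleen. It was higher by 0.99 ± 0.15 (adjusted p = 1.03e-06), with 10 of 17 VAT libraries above the highest spleen library. Acsl1 (17.2 against 20.2 CPM) and Acsl3 (4.95 against 5.86 CPM) were low and not called (adjusted p = 0.152 and 0.394). As shares of the summed CPM per kb of the 4 synthetases, Acsl5 made up 71.2% in VAT and 80.0% in spleen, and Acsl4 24.8% and 14.4%. The shares are ratios of mean levels and were not tested themselves.

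The classic transcriptional regulators of the pathway were low in both tissues, and none was higher in VAT. Ppara, the main PPAR of liver oxidation, had 15 counts over the 17 VAT libraries and 22 over the 18 spleen libraries; its CPM ran from 0 through a median of 0 to 2.00 in VAT and from 0 through 0 to 1.79 in spleen. Ppard, the widely expressed PPAR-delta, ran from 2.27 through 5.51 to 7.98 CPM in VAT and from 5.03 through 9.69 to 19.4 CPM in spleen. It was lower in VAT at -0.83 ± 0.18 (adjusted p = 8.65e-05), with 7 of 17 VAT libraries below the lowest spleen library. Ppargc1a, the coactivator PGC-1alpha, ran from 0 through 0.250 to 4.51 CPM in VAT (48 counts in all) and from 0 through 0.742 to 4.39 CPM in spleen (79 counts). It was not called (adjusted p = 0.141), and its fold change has no SE because all VAT libraries at ZT8 were at 0; without VAT ZT16 C its adjusted p was 0.0390. Ppargc1b, the coactivator PGC-1beta, ran from 3.59 through 9.14 to 19.3 CPM and from 6.89 through 11.6 to 15.2 CPM and was not called (-0.26 ± 0.17, adjusted p = 0.187).

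Ordered by CPM per kilobase of exon, the leading genes in VAT were Ucp2 (152), Acaa2 (107), Acadl (101), Etfb (64.7) and Acadvl (64.5), and in spleen Ucp2 (94.5), Acaa2 (72.0), Acadl (47.7), Etfa (47.4) and Acsl5 (46.7). The leading 3 were the same in both tissues. Exon length joins the exons of all annotated transcripts of a gene, so this order depends on the annotation as well as on the counts. In VAT, Acaa2 and Acadl, and likewise Etfb and Acadvl, stood within the spread of their libraries, as did Acadl, Etfa and Acsl5 in spleen. Cpt1a moved furthest up among these positions, from rank 25 in spleen to rank 12 in VAT.

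**Figure D3:**
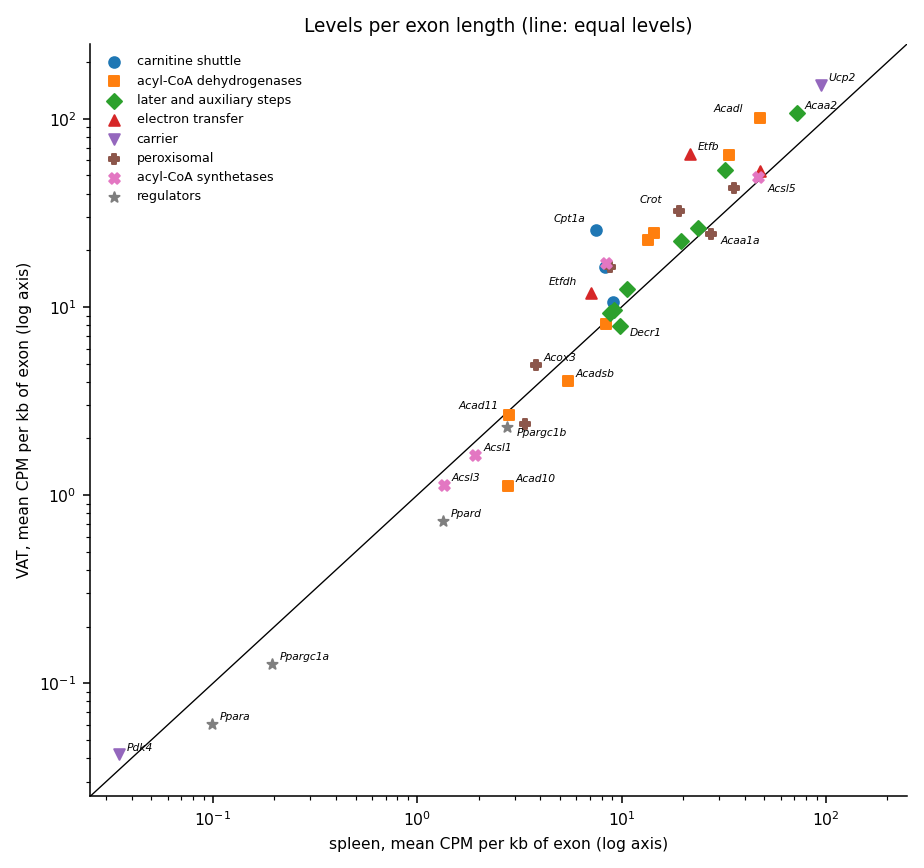
Mean CPM per kilobase of exon of all 38 genes in spleen (x, log axis) and VAT (y, log axis), with symbols by pathway step and a line of equal levels. Cpt1a and Etfb stand farthest above the line among the enzymes, while Acad10 and Ppard lie below it.

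Time of day was examined by fitting a 24 h cosine in each tissue, with amplitude given from peak to trough on the log2 scale. Under edgeR quasi-likelihood with Benjamini-Hochberg adjustment, 0 of 36 genes were called in VAT and 1, Cpt1a, in spleen, against 1.88% and 1.99% of all genes tested. The difference of the courses between tissues was called for 0 of 36, against 0.00629% of all genes. At an unadjusted p under 0.05 the counts were 9 of 36 in VAT, 10 in spleen and 1 for the difference, against 17.5%, 15.6% and 9.09% of all genes. DESeq2 called 2 genes in VAT (Cpt1a and Eci1), 1 in spleen and 0 for the difference.

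In the 3 VAT libraries of each time, Cpt1a was at 156, 198 and 175 CPM at ZT0, 183, 270.4 and 166 at ZT4, 285, 293 and 263 at ZT8, 188, 231 and 217 at ZT12, and 173, 277 and 102 at ZT16, and the 2 libraries at ZT20 had 75.9 and 90.7 CPM. In spleen the values were 65.1, 53.9 and 49.8 CPM at ZT0, 56.7, 92.2 and 60.7 at ZT4, 93.3, 92.8 and 78.8 at ZT8, 99.4, 22.1 and 49.5 at ZT12, 45.5, 41.3 and 33.9 at ZT16, and 43.2, 31.9 and 21.6 at ZT20. The highest mean was at ZT8 and the lowest at ZT20 in both tissues, and single libraries at ZT16 in VAT and at ZT12 in spleen spread widely. The fitted amplitude was 1.11 ± 0.30 (SE) with a peak at ZT8.23 in VAT (adjusted p = 0.0933) and 1.31 ± 0.29 with a peak at ZT6.63 in spleen (adjusted p = 0.0340). The courses were not called different (adjusted p = 0.828), and VAT was the higher tissue at each time, by log2 fold changes of 1.34 to 2.20.

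The spleen call of Cpt1a depended on single libraries and on the model. It was lost when any of 8 spleen libraries was left out, namely ZT4 C (adjusted p = 0.0744), ZT8 B (0.0766), ZT8 C (0.0850), ZT8 D (0.0688), ZT16 B (0.0802), ZT16 C (0.0675), ZT20 B (0.0778) and ZT20 C (0.0933), with amplitudes of 1.19 to 1.33. Without the ZT20 libraries of both tissues the amplitude was 1.16 (adjusted p = 0.156). With a covariate for the slope of log expression on transcript length in each library it was 0.85 (adjusted p = 0.307). This slope moved with time: it was -0.091 to -0.037 in the 5 ZT20 libraries and -0.066 to 0.058 in the 30 others. Cpt1a has 7.64 kb of exon, and its part in the daily course of that slope was not tested further. In the test of any difference among the 6 times, Cpt1a was not called in spleen; Acaa2 and Ucp2 were. In VAT, where it was not called, the Cpt1a amplitude was 0.69 with the length slope (adjusted p = 0.566) and 0.72 without ZT20 (adjusted p = 0.668). It passed there without ZT16 B (1.37, adjusted p = 0.0181) or without spleen ZT12 B (1.11, adjusted p = 0.0473).

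Eci1, the mitochondrial isomerase for unsaturated chains, had the lowest p over time after Cpt1a, with a course of the opposite phase. In VAT its libraries were at 61.5, 59.4 and 47.1 CPM at ZT0, 69.0, 36.6 and 58.1 at ZT4, 34.8, 46.7 and 37.7 at ZT8, 63.4, 40.1 and 49.6 at ZT12, 54.6, 41.2 and 76.6 at ZT16, and 87.3 and 90.9 at ZT20. Both ZT20 libraries were above every other VAT library. The fitted amplitude was 0.79 ± 0.20 with a peak at ZT20.2 (adjusted p = 0.0563), and it was 0.86 to 0.87 without VAT ZT0 C, ZT4 B, ZT12 A or ZT16 B (adjusted p = 0.0179, 0.0256, 0.0347 and 0.0221). With the length slope it was 0.37 (adjusted p = 0.724), and without ZT20 it was 0.50 (adjusted p = 0.704). In spleen Eci1 means were 47.0, 47.4, 43.8, 48.7, 56.3 and 58.5 CPM from ZT0 to ZT20, with an amplitude of 0.39 ± 0.19 (adjusted p = 0.495).

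The other 4 genes with the lowest p over time were not called in either tissue. Acsl1 had means of 22.7, 17.3, 17.97, 18.99, 13.2 and 11.04 CPM from ZT0 to ZT20 in VAT and 18.5, 21.4, 30.5, 21.5, 15.04 and 14.2 CPM in spleen, where its amplitude was 0.99 ± 0.30 with a peak at ZT7.30 (adjusted p = 0.133; 0.48 with the length slope, adjusted p = 0.777). Acad11 had means of 26.3, 27.4, 34.2, 25.4, 27.4 and 10.3 CPM in VAT (0.80 ± 0.25, adjusted p = 0.171; without VAT ZT16 B 1.01, adjusted p = 0.0431, and without ZT20 0.30, adjusted p = 0.883) and 29.2, 31.4, 34.1, 27.8, 22.9 and 20.8 CPM in spleen. Like Cpt1a, both were lowest at ZT20. Decr2 had means of 41.8, 45.8, 34.4, 43.0, 47.3 and 50.8 CPM in VAT and 24.6, 20.02, 17.9, 21.9, 28.3 and 26.4 CPM in spleen (0.62 ± 0.21, adjusted p = 0.192). Acaa1a had means of 101.7, 106, 90.0, 105, 112 and 145 CPM in VAT (0.43 ± 0.16, adjusted p = 0.227; 0.20 with the length slope and 0.22 without ZT20) and 112, 123, 107, 117, 132 and 134 CPM in spleen. Both were lowest at ZT8, as Eci1 was. Acsl3 was the 1 gene with an unadjusted p under 0.05 for the difference between tissues (adjusted p = 0.329); its highest mean was 10.1 CPM at ZT16 in VAT and 10.03 CPM at ZT8 in spleen, at only 320 and 428 counts in all.

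Genes with a fitted peak in the light phase had the longer median exon length in both tissues, with overlapping ranges. In VAT, 13 genes had a fitted peak in the light phase, with 2.27 to 11.5 kb of exon (median 6.59), and 23 in the dark phase, with 1.16 to 8.73 kb (median 4.41). In spleen, 15 genes had 4.36 to 11.5 kb (median 6.59) and 21 had 1.16 to 8.73 kb (median 3.88). Among genes with an unadjusted p under 0.05, the medians were 7.12 kb (light, 4 genes) and 4.41 kb (dark, 5 genes) in VAT. In spleen they were 7.41 kb (6 genes) and 5.93 kb (4 genes). This is a description with no test. Most of these peaks belong to courses that were not called, and the part of the length slope in them was not tested.

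**Figure D4:**
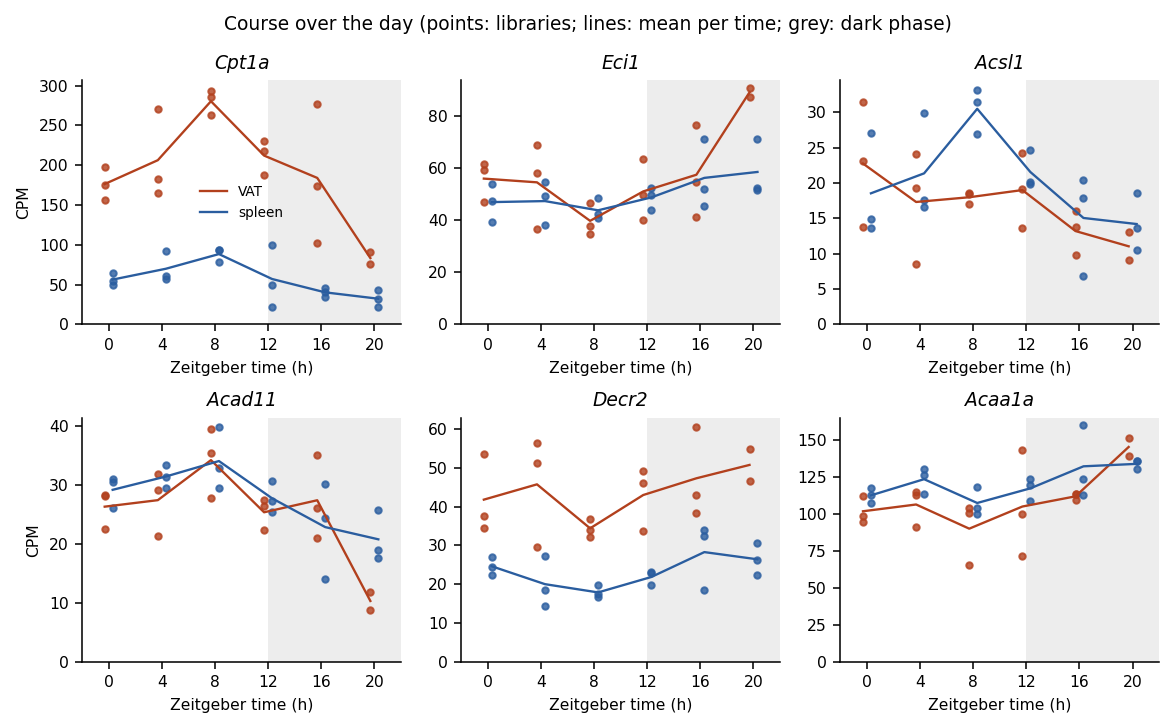
CPM (y axis from 0) by Zeitgeber time (x axis, h; dark phase in grey) for the 6 genes with the lowest p over time, as points per library and a line through the mean of each time in VAT (red) and spleen (blue). Cpt1a, Acsl1 in spleen and Acad11 are highest at ZT8, while Eci1, Decr2 and Acaa1a are lowest there.

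A further 141 genes of the pathway, in 8 lists, set these results in context. Of the 115 tested, 48 were higher, 28 lower and 39 not called, with a median log2 fold change of 0.19. Among all genes tested, 28.4% were higher and 33.8% lower, with a median of -0.10. The counts of each list below stand against these shares, and no list was tested as a set. Peroxisomal oxidation and import genes had 15 of 26 higher and 4 lower. Scp2, which holds a peroxisomal thiolase, was higher by 1.17 ± 0.09, and Ehhadh, the other multifunctional enzyme of peroxisomes, by 0.68 ± 0.16 (0.34 with library totals, adjusted p = 0.0575). The peroxisome division gene Pex11a was higher by 1.25 ± 0.30, while Pex10 and Pex26, of the matrix import machinery, were lower (-1.36 ± 0.17 and -1.03 ± 0.18).

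Among the acyl-CoA thioesterases, which undo activation, 4 of 9 were higher and 1 lower. Acot7 averaged 340.4 ± 82.8 CPM in VAT and 54.0 ± 16.2 CPM in spleen (log2 fold change 2.702 ± 0.075), and Acot11 66.6 ± 14.1 and 8.64 ± 3.12 CPM (2.92 ± 0.13). Acot9 was higher by 0.63 ± 0.08, and Acot6, at 2.35 against 4.85 CPM, was lower by -1.31 ± 0.32. Of the other synthetases 4 of 10 were higher and 3 lower. The higher ones were led by Acsbg1, a long-chain synthetase known from brain (329 against 125 CPM, 1.40 ± 0.06), the cytosolic acetyl-CoA synthetase Acss2 (1.07 ± 0.10) and the fatty acid transport protein Slc27a4 (0.62 ± 0.20, adjusted p = 0.0527 without ZT20 and 0.227, at 0.28, with library totals). The mitochondrial acetyl-CoA synthetase gene Acss1 was lower (-0.63 ± 0.11), as was Acsf2 (-1.02 ± 0.39). Slc27a5 passed narrowly at 0.613 against 1.12 CPM (adjusted p = 0.0440), a call lost in 24 of 44 alternatives.

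Carnitine supply and other acyltransferases had 4 of 9 higher and 2 lower. Crat, the acetyltransferase that buffers acetyl-CoA, averaged 22.4 ± 6.51 CPM in VAT and 6.02 ± 3.28 CPM in spleen (1.98 ± 0.20), and the carnitine synthesis genes Aldh9a1 and Tmlhe were higher by 0.95 ± 0.06 and 0.65 ± 0.18; with library totals Tmlhe was at 0.30 and not called (adjusted p = 0.140). The plasma membrane carnitine transporter Slc22a5 was lower, at 21.2 ± 4.37 against 68.5 ± 21.7 CPM (-1.68 ± 0.11), as was the mitochondrial carrier Slc25a29 (-1.41 ± 0.23).

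Ketone body and branched-chain acyl-CoA enzymes had 3 of 20 higher and 12 lower. Aldh6a1, the isovaleryl-CoA dehydrogenase gene Ivd and Bckdhb were lower (-0.88 ± 0.15, -0.85 ± 0.08 and -0.81 ± 0.16), and Bckdha (0.65 ± 0.13) and Acat1 (0.34 ± 0.07) were among the higher. The direction of Acadsb, which acts on a branched-chain acyl-CoA, was that of most genes in this list. Pyruvate dehydrogenase control had 3 of 12 higher and 2 lower. Its inhibitory kinase gene Pdk1 averaged 96.2 ± 27.4 against 247 ± 58.9 CPM (-1.43 ± 0.10), Pdk2 was lower by -0.49 ± 0.17 (adjusted p = 0.0577 without VAT ZT20 C), and Mpc2, Pdp1 and Dld were higher by 0.47 ± 0.11, 0.34 ± 0.10 and 0.25 ± 0.07. With library totals Acat1, Pdp1 and Dld turned negative, and Mpc2 was at 0.13 and not called (adjusted p = 0.300).

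Partner regulators had 10 of 20 higher and 4 lower. Pparg (chromosome 6, 115360951 to 115490399), the PPAR of adipocytes and fat Tregs, ran from 76.4 through 106 to 145 CPM in VAT and from 0 through 0.991 to 4.005 CPM in spleen (6.33 ± 0.31). The AMP kinase subunit gene Prkab2 was higher by 1.38 ± 0.18 and the corepressor gene Nrip1 by 0.95 ± 0.09, whereas Tfam, of mitochondrial DNA upkeep, Pprc1 and Rxrb were lower (-0.70 ± 0.07, -0.40 ± 0.10 and -0.38 ± 0.13). Among the PPARs, then, Pparg stood above 76 CPM in each VAT library while Ppard stayed below 8 and Ppara at or below 2.00 CPM. Known PPAR targets outside oxidation had 5 of 9 higher and 0 lower. The lipid droplet genes Plin2 (609 ± 111 against 19.1 ± 8.98 CPM, 5.03 ± 0.13) and Hilpda (534 ± 111 against 17.9 ± 4.78 CPM, 4.90 ± 0.11) led it, with larger fold changes than any of the 36 genes above. The fatty acid translocase gene Cd36 was higher by 3.43 ± 0.75, which rested on VAT ZT16 C (1.87 without it, adjusted p = 0.99993).

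Over 24 h, 5 of these 115 genes were called in VAT and 2 in spleen, against 1.88% and 1.99% of all genes tested. Acot7 was called in both, with an amplitude of 0.70 ± 0.16 in VAT (adjusted p = 0.0321) and 1.01 ± 0.16 in spleen (adjusted p = 0.00196), peaking at ZT21.4 and ZT19.6. In VAT the others were Acss1 (1.42 ± 0.26), Pdk1 (0.94 ± 0.21), Txnip (0.81 ± 0.17) and the peroxisomal transporter gene Abcd4 (0.74 ± 0.18), with fitted peaks from ZT7.37 to ZT11.01. In spleen the other was the catalase gene Cat (0.47 ± 0.12, adjusted p = 0.0477). Over all genes tested, calls in VAT fell from 299 to 27 with the length slope and to 17 without ZT20. In spleen they fell from 316 to 104 and to 284. The calls of these pathway genes over 24 h were not examined in those fits or with single libraries left out.

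**Figure D5:**
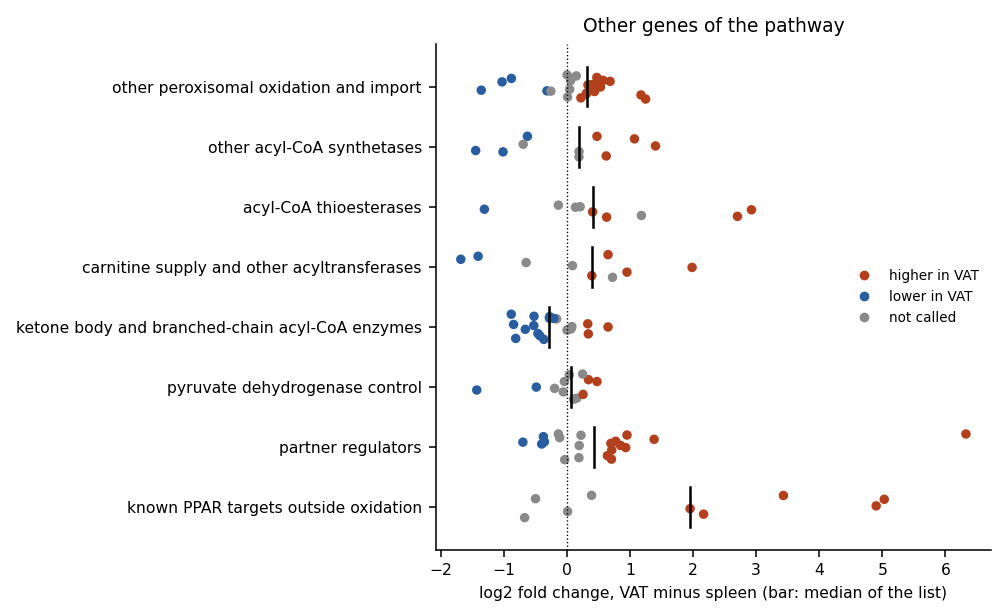
Log2 fold change between VAT and spleen (x axis) of the 115 further pathway genes tested, 1 point per gene, in 8 lists (rows), with the list's median as a bar and colours as for the calls. The isolated points at the right are Pparg, Plin2, Hilpda and Cd36, and most ketone body and branched-chain genes lie below 0.

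Reads of overlapping genes cannot be told apart where strand is not known. In GENCODE M21, 23 of the 38 genes overlap a gene of another name and 10 overlap a protein-coding gene: Acaa1a, Acad11, Acadsb, Acadvl, Acsl3, Acsl5, Echs1, Etfdh, Hadha and Ucp2. Acsl3 and Acad11 overlap a protein-coding gene on the same strand (Utp14b and Gm28305), which a known strand would not separate. The values of these 10 are uncertain to that extent.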

How the data were processed

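RNA was primed with oligo-dT, amplified, made into Nextera XT libraries and sequenced as paired reads of 25 nt, per the labels' protocols. The deposited values were raw counts per gene symbol, which the authors obtained by STAR 2.7.3a alignment to mm10 and featureCounts (per the submitters' processing notes). The annotation, the strand setting or how multiply mapped reads were treated is not given in the sources used here.

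The 38 genes, their roles, 8 lists of 141 further pathway genes and 8 marker lists were chosen with earlier results of these data known. Counts were analysed with edgeR 4.0.16 in R 4.3.3. The filterByExpr function with 12 tissue and time groups kept 15910 genes, and libraries were scaled by TMM. Robust quasi-likelihood tests on all 35 libraries with Benjamini-Hochberg adjustment over these genes gave each adjusted p, unless DESeq2 1.42.0 is named; the threshold was 0.05. A cosine and a sine of 24 h per tissue were tested with 2 df. CPM is per TMM-scaled total. Lengths and positions (counted from 1) come from GENCODE M21, promoters from RefSeq (GRCm38.p6). A gene's exon length counts each base once that is in an exon of any of its transcripts. All genes are accounted for by role. Lowest, median and highest values are given for genes called with an absolute log2 fold change of 1 or more and for regulators, and 5 more (Acadvl, Hadh, Etfdh, Ucp2, Acsl4) were chosen for this after their values were seen. Time values are given for genes called over time, filled up to 6 by lowest p. Of each pathway list, at most 3 called genes per direction are named by fold change; 2 genes that this would name are not reported here. The method was also run on simulated counts that held no length slope and no batch, so that run does not bear on either. Letters were not used as pairs because the labels do not say what a letter shares. Deviations from the group mean, over all genes tested, correlated at -0.112 to 0.0575 in 17 same-lettered pairs of VAT and spleen libraries. With groups of 2 or 3 libraries, these values cannot decide whether a letter marks a shared animal or day. No libraries of a group agreed within sampling noise (chi-square per gene 4.10 to 20.0 in 34 pairs).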

Additional observations from a re-analysis of the deposited data

How the results depend on the processing

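Alternatives were DESeq2 size factors, library totals, no filter or a stricter one (5 CPM in 6 libraries), DESeq2 1.42.0, a replicate block, no ZT20 libraries, a length slope covariate, additive terms, each tissue alone, any difference among times (5 df) and leaving out each library. Between tissues, 18 to 21 genes were higher and 5 to 7 lower when a library was left out. Library totals gave 16 lower genes, and 23 higher and 48 lower pathway genes. Under them Cpt2 (-0.10), Hadha (-0.15), Hadhb (-0.28), Echs1 (-0.24), Eci1 (-0.17), Eci2 (-0.12), Etfa (-0.17), Acox3 (-0.051), Hsd17b4 (-0.086), Acsl5 (-0.27), Acat1 (-0.0083), Pdp1 (-0.0064) and Dld (-0.092) turned negative, which follows from the shift of the median of all genes to -0.45. Over 24 h in VAT, 2 genes were called with no filter, 1 with the stricter filter, 3 for any difference among times (Acad11, Eci1 and Ucp2) and 2 with DESeq2, and 0 to 3 when a library was left out. In spleen, 3 were called with no filter, 2 for any difference among times (Acaa2 and Ucp2), 0 without ZT20, 0 with the length slope and 0 to 1 when a library was left out. The difference between tissues was called for 1 gene with no filter (Acsl3) and for 0 when any library was left out. The fit with no filter called 1547 of 47525 genes for that difference, against 1 of 15910; the cause was not tested.

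The replicate letters share no stated source. With the letter as a replicate block, 19 genes were higher and 5 lower, 0 were called over time in VAT and 1 in spleen (Cpt1a, amplitude 1.498, adjusted p = 0.0344). With a block of letter within time, 18 were higher and 5 lower, and Eci2 missed the threshold (adjusted p = 0.0548). Decr1 did so with no filter (adjusted p = 0.0584), as did Acsf2 (adjusted p = 0.0646). Depth limited Ppara, Pdk4 and Ppargc1a, with at most 79 counts in a tissue.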
